A study of Mus musculus with 12 samples.

Results

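The 10 genes described here encode the nicotinic acetylcholine receptor of muscle (Chrna1, Chrnb1, Chrnd, Chrng and Chrne), proteins that cluster it (Musk and Rapsn), and proteins that couple excitation to contraction (Cacng1, Cacna1s and Ryr1). They were taken by gene symbol from 30154 genes measured in muscle stem cells of C57BL/6J mice aged 2 to 3 months. They were chosen by their function and by the measured change from day 0 to day 7 after injury, in which Cacng1 was among the strongest rises, so that change is described for these genes and not tested. All 10 passed the filter on low counts. Chrne passed it only through the 2 knockout libraries of day 7, and Cacna1s reached its minimum in 1 of the 4 libraries of day 0.

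The cells were sorted by flow cytometry from leg muscle (quadriceps, gastrocnemius and tibialis anterior). Wild type mice and mice lacking Sestrin1 and Sestrin2 were sampled before injury (day 0) and 7 and 21 days after it, with 2 libraries per genotype and day and 12 in all. The labels do not name the kind of injury, the way the knockout was made, or whether the 2 libraries of a group came from separate mice, so the p-values measure only the spread between these libraries. Values below are CPM, which scales counts to the size of the library, unless TPM, which also corrects for transcript length, is named.

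In a muscle fibre, acetylcholine released by the nerve opens a receptor built of alpha, beta, delta and either gamma or epsilon subunits. The gamma subunit marks the fetal receptor, also found in denervated or regenerating muscle, and epsilon replaces it in the adult one. Agrin from the nerve acts through Lrp4 and the kinase MuSK, and the scaffold rapsyn holds the receptors in clusters. The depolarisation is sensed by the dihydropyridine receptor, whose pore subunit is Cacna1s and whose gamma subunit is Cacng1, and this channel opens the ryanodine receptor Ryr1 to release calcium. Muscle stem cells at rest have no neuromuscular junction, and their progeny differentiate and fuse into fibres that carry one.

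The libraries held between 28396862 and 38950614 estimated counts, and between 17403 and 18277 genes were detected in each. Sesn2, a targeted gene, was at 5.47 and 7.03 CPM in knockout against 75.1 and 84.3 in wild type before injury, and at 2.36 and 1.92 against 44.9 and 47.4 at day 7. The day 21 pair labelled knockout held 9.86 and 108 and the pair labelled wild type 8.92 and 82.1, so replicate 2 labelled knockout and replicate 1 labelled wild type went against their labels. Sesn1 was at 46.0 and 45.8 CPM in knockout against 70.3 and 68.6 in wild type before injury, and at 28.4 and 22.4 against 84.0 and 67.9 at day 7. The day 21 libraries held 41.7 and 67.2 of Sesn1 (replicates 1 and 2 labelled knockout) and 43.7 and 78.3 (replicates 1 and 2 labelled wild type), so replicate 2 was the higher one in both, as for Sesn2. Results of day 21 are therefore given by label, and the tests of the 10 genes also without those 2 libraries. All 8 satellite cell markers on the list used, Pax7 among them, were detected in every library, with summed levels of 391 to 1010 TPM. Of the other cell types, 5 fibro-adipogenic markers summed to 5301 to 11438 TPM, 8 Schwann and neural markers to 245 to 2124, 5 endothelial markers to 36.1 to 101 and 6 immune markers to 3.78 to 35.8. Chat, of motor neurons, was at 0 in 11 of the 12 libraries, and the other 7 Schwann and neural markers were detected in every library. Of the 6 immune markers 3 or 4 were detected in each library of day 0, and Cd3e and Emr1 were at 0 in all 4.

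On GRCm38, in GENCODE release M21, Chrnd (chr1:87190607-87200070) and Chrng (chr1:87204657-87212694) lie next to each other on the plus strand, 4.587 kb apart. Cacna1s (chr1:136052750-136119822) is on the same chromosome. Chrna1 (chr2:73563215-73580338) and Rapsn (chr2:91035620-91045729) are on chromosome 2, Musk (chr4:58285960-58374303) is on 4 and Ryr1 (chr7:29003344-29125179) is on 7. Chromosome 11 holds Chrnb1 (chr11:69784036-69795943), Chrne (chr11:70614883-70619216) and Cacng1 (chr11:107703218-107716522). Antisense models share 1309 exonic bases with Cacna1s and 914 with Ryr1, and the counting is not stated to use strand. Reads from these shared bases therefore cannot be told apart between the gene and its antisense partner.

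Promoters of 7 of the 10 genes were found in the RefSeq table for GRCm38.p6. E-boxes with the core CAGCTG are the form that myogenic factors of the MyoD family bind, and the N-box CCGGAA is known from receptor genes of the junction. The 250 bases before the start site are shown for the fetal and adult subunits, whose levels the results below set apart, for the alpha subunit, which differed between genotypes, and for Musk, which followed another course in time. They run 5′ to 3′ on the gene's strand and CAGCTG and CCGGAA are in capitals; the windows are chr2:73580339-73580588 (minus strand), chr1:87205561-87205810 (plus), chr11:70619195-70619444 (minus) and chr4:58285712-58285961 (plus). The RefSeq start of Chrng lies inside the GENCODE gene.
Chrna1: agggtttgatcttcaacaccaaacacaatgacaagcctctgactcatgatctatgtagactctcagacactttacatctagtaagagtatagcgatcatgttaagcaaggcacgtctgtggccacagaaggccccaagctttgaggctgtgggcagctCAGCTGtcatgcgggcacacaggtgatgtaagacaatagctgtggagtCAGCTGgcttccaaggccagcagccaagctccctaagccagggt
Chrng: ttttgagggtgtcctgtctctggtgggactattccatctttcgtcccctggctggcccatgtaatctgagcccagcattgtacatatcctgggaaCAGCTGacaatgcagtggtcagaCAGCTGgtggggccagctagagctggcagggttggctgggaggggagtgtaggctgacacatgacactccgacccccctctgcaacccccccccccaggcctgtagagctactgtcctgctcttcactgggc
Chrne: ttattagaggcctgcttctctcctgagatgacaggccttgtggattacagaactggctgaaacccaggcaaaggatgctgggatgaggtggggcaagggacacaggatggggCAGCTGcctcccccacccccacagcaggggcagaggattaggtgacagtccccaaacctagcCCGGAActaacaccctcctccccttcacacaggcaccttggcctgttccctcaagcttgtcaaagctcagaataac
Musk: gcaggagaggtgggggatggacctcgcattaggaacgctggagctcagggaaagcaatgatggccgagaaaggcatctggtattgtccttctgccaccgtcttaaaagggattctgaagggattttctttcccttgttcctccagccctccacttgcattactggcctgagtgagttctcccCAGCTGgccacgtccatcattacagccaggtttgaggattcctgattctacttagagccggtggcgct

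Counted from the start site, Chrna1 held CAGCTG at -92 and -44 and Chrng at -155 and -132. Chrne held 1 match at -138 and CCGGAA at -76, and Musk held CAGCTG at -68. Cacna1s also had 1 match, at -123, and Chrnb1 and Ryr1 had none. CAGCTG, searched on both strands, was thus found in 5 of 7 windows, against 13% of 32851 promoters of the same length. Of all these promoters 1.26% held at least 2 matches, as Chrna1 and Chrng did. CCGGAA was found in 1 of 7 windows, against 12% of all. A match describes the letters and does not show that a factor binds.

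Chrna1, the receptor's alpha subunit, stood at 73.0 and 68.6 CPM in wild type against 24.3 and 25.1 in knockout before injury, at 269 and 276 against 391 and 425 at day 7, and at 86.4 and 108 against 69.0 and 53.3 in the libraries so labelled at day 21. The wild type libraries were thus the higher ones at day 0, the knockout ones at day 7, and those labelled wild type at day 21. The labelled groups did not overlap on any day, but at day 21 Sesn2 contradicts 1 label in each group. From day 0 to day 7 its mean was 3.85-fold higher in wild type and 16.5-fold higher in knockout.

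Chrnd and Chrng, the delta and gamma subunits, were close to absent at day 0 and abundant at day 7. Chrng was at 1.31 and 0.923 CPM in wild type against 0.669 and 0.589 in knockout before injury, at 30.5 and 38.3 against 79.5 and 93.3 at day 7, and at 0.945 and 0.202 against 1.29 and 2.45 at day 21 by label. Chrnd was at 0.937 and 0.659 in wild type against 0.274 and 0.750 in knockout before injury, at 19.4 and 26.5 against 55.7 and 48.1 at day 7, and at 0.709 and 1.62 against 0.776 and 2.08 at day 21 by label. Every day 7 library of both genes was above every library of the other days. The mean of Chrng was 30.8-fold higher at day 7 than at day 0 in wild type and 137-fold higher in knockout, and that of Chrnd 28.8-fold and 101-fold.

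Chrnb1, the beta subunit, was abundant throughout. It was at 142 and 146 CPM in wild type against 80.3 and 77.6 in knockout before injury, at 170 and 161 against 144 and 162 at day 7, and at 172 and 155 against 151 and 127 at day 21 by label. The 2 knockout libraries of day 0 stood below the other 10. Chrne, the adult epsilon subunit, had 3 and 2 counts in wild type against 0 and 1 in knockout before injury, 10 and 4 against 21 and 11 at day 7, and 1 and 1 against 1 and 4 at day 21 by label. At day 0 both genotypes were at or under a floor of 3 counts per library and no fold is given.

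**Figure D1:**
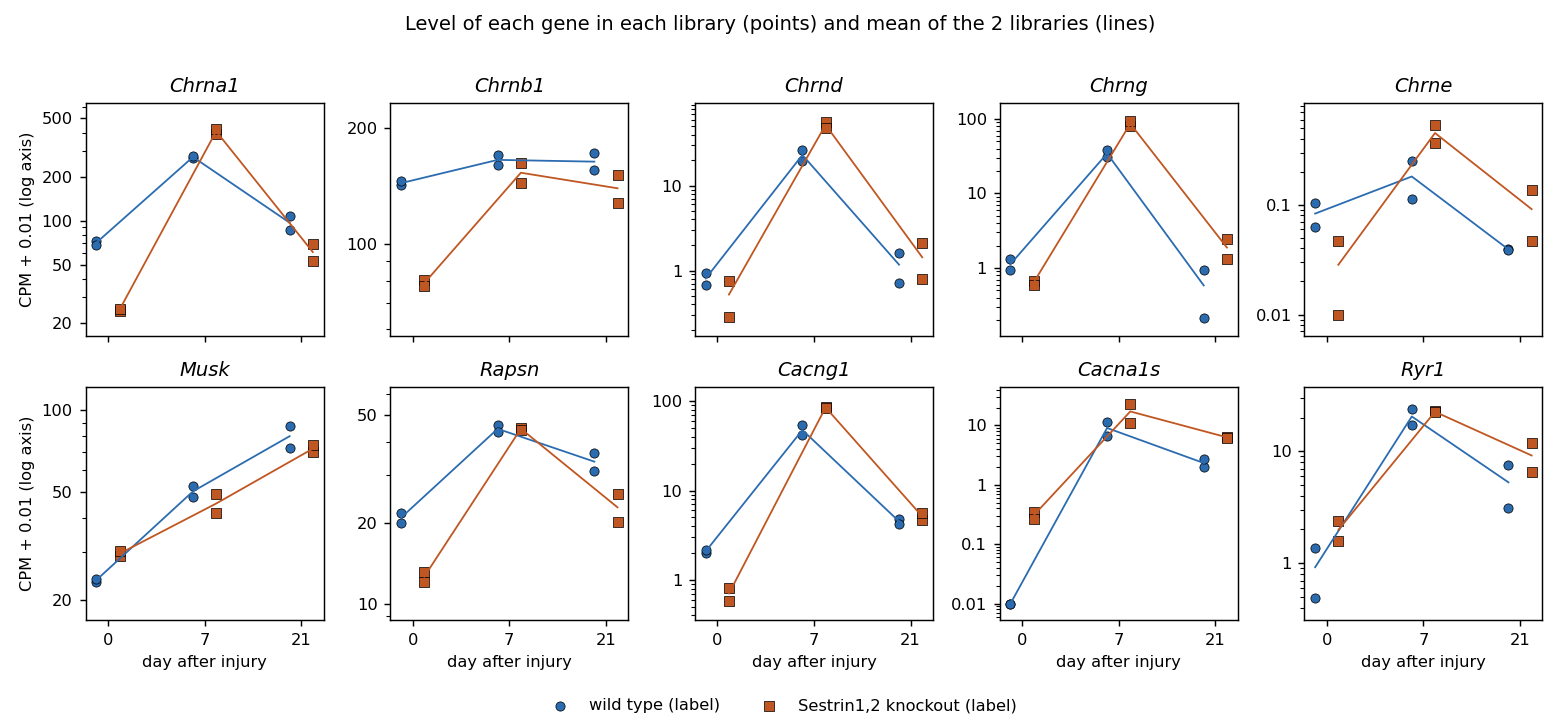
Level of each of the 10 genes in each library, as CPM + 0.01 on a log axis, against day after injury; points are libraries, lines join the means of 2 libraries, and colour gives the labelled genotype. Chrnd, Chrng and Cacng1 peak at day 7, Musk is highest at day 21, and Chrnb1 is lowest in knockout at day 0.

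Of the proteins that cluster the receptor, the kinase gene Musk followed another course. It was at 23.4 and 24.0 CPM in wild type against 29.0 and 30.2 in knockout before injury, at 52.7 and 47.8 against 48.9 and 41.7 at day 7, and at 87.8 and 72.6 against 70.0 and 74.3 at day 21 by label. All 4 libraries of day 21 were above all 8 others. Rapsn, the scaffold, was at 20.0 and 21.7 CPM in wild type against 12.1 and 13.1 in knockout before injury, at 46.0 and 43.2 against 44.9 and 44.3 at day 7, and at 31.0 and 36.3 against 25.5 and 20.1 at day 21 by label. Rapsn differed between genotypes at rest and overlapped between them at day 7.

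Cacng1, the gamma subunit of the dihydropyridine receptor, was at 2.00 and 2.16 CPM in wild type against 0.578 and 0.810 in knockout before injury. At day 7 the wild type libraries held 41.5 and 53.5 and the knockout ones 86.7 and 83.3, followed at day 21 by 4.76 and 4.25 against 4.65 and 5.599 by label. Its mean was 22.8-fold higher at day 7 than at day 0 in wild type and 123-fold higher in knockout. Because Cacng1 was chosen for this rise, its genotype differences at days 0 and 7 are given without a test: 3.00-fold lower in knockout at day 0 and 1.79-fold higher at day 7, with no overlap on either day.

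Cacna1s, the pore subunit, had 0 counts in both wild type libraries of day 0 and stood at 0.334 and 0.258 CPM, or 11 and 7 counts, in knockout. At day 7 the wild type libraries held 6.72 and 11.4 CPM and the knockout ones 23.4 and 11.0, followed at day 21 by 1.98 and 2.66 against 6.46 and 6.13 by label. Against the floor of 3 counts per library, wild type was at least 105-fold higher at day 7 than at day 0, and knockout was 58.1-fold higher. In TPM the knockout fold was 16.0, since the length by which its counts were divided differed between days. Ryr1, the calcium release channel, was at 1.34 and 0.477 CPM in wild type against 2.36 and 1.58 in knockout before injury, at 17.0 and 23.8 against 22.8 and 22.2 at day 7, and at 3.08 and 7.45 against 11.9 and 6.45 at day 21 by label. Its mean was 22.4-fold higher at day 7 than at day 0 in wild type and 11.4-fold higher in knockout, so the larger fold of Ryr1 was in wild type, as was that of Musk (2.12-fold against 1.53-fold), while those of Chrna1, Chrnb1, Chrnd, Chrng, Rapsn and Cacng1 were larger in knockout.

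Over the 10 genes, all 4 libraries of day 7 were above all 4 of day 0 for 9, Chrnb1 being the exception, while 25.2% of the 15890 tested genes separated the same way. This contrast chose the members and nothing is read from their share. All 4 libraries of day 7 were above the other 8 for 7 genes, not for Chrnb1, Chrne and Musk, against 16.2% of tested genes, with the same limit. All 4 libraries of day 21 were above all 4 of day 0 for Musk, Cacng1, Cacna1s and Ryr1, against 15.6% of tested genes. The day 0 libraries are part of the change that chose the members, Cacng1 above all, so nothing is read from this share either.

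**Figure D2:**
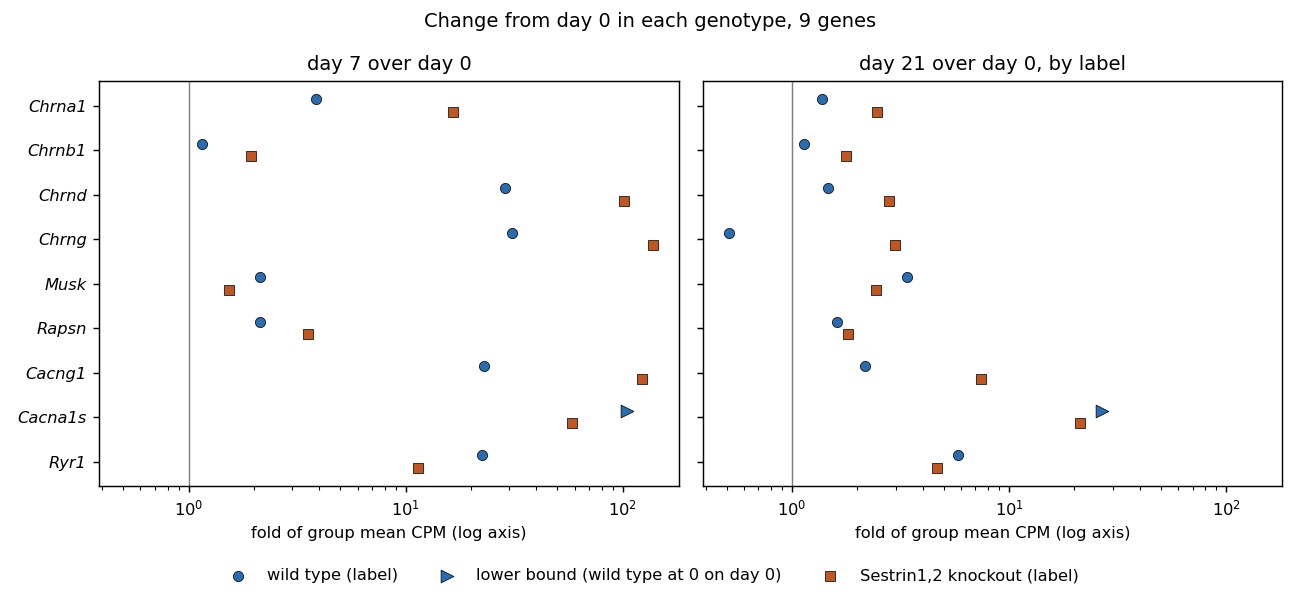
Fold of the group mean CPM over day 0, on a log axis, at day 7 (left) and at day 21 by label (right) for 9 genes; Chrne is left out because its counts are at the floor, and triangles are lower bounds. Chrng is 137-fold higher at day 7 in knockout and 30.8-fold higher in wild type, and 0.513 of its day 0 mean at day 21 in the libraries labelled wild type.

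Markers of differentiating and mature muscle moved with these changes. Summed over 18 myogenic differentiation genes, the level was 855 to 1071 TPM at day 0, 5220 to 7927 at day 7 and 1367 to 1789 at day 21. The 7 mature fibre markers, all detected in every library, summed to 27.6 to 50.9, 307 to 425 and 71.1 to 85.5 TPM. The 6 immune markers summed to 3.78 to 4.94 TPM at day 0 and 11.9 to 35.8 at day 7. In knockout the 5 fibro-adipogenic markers summed to 5321 and 5301 TPM at day 0 and 8877 and 9013 at day 7. In wild type they summed to 7560 and 7422 and then to 7467 and 7884. The Schwann and neural markers summed to 1714 to 2124 TPM at day 0 and 245 to 360 at day 7. In bulk samples more cells of a type and more RNA per cell cannot be told apart, and the part of these markers in the changes of the receptor genes was not tested.

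Set against each other per length, Chrnb1 was the highest member at day 0, at 100 and 105 TPM in wild type and 58.1 and 60.1 in knockout. In wild type Chrna1 (19.4 and 20.9) and Rapsn (18.9 and 21.0) followed and overlapped, then Musk (10.1 and 10.8) and Cacng1 (2.46 and 2.63). Chrng (0.792 and 1.09) and Chrnd (0.417 and 0.511) came next, and Chrne, Ryr1 and Cacna1s were last. At day 7 in knockout Chrna1 (127 and 136), Chrnb1 (120 and 131) and Cacng1 (115 and 121) overlapped in turn at the top, followed by Chrng (75.2 and 93.8). At day 7 in wild type the order was Chrnb1 (138 and 149), Chrna1 (88.7 and 92.8), Cacng1 (59.0 and 77.4), Rapsn (46.6 and 48.9) and Chrng (29.1 and 44.8), none overlapping the next of these, while Chrng overlapped Musk (27.4 and 29.3). At day 21 Chrnb1 again led in both labelled genotypes, from 116 to 134 TPM. Musk came second, overlapping Rapsn in the libraries labelled wild type.

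The fetal subunit exceeded the adult one in every library. Chrng was at 29.1 to 93.8 TPM at day 7, when Chrne was at 0.108 to 0.540. As a share of Chrng plus Chrne, Chrng made up 99.1% to 99.8% of TPM in the 4 libraries of day 7. At day 0 the share was 83.6% and 74.0% in wild type, resting on 5 Chrne counts, and 100% and 89.3% in knockout, resting on 1. By label, day 21 gave 96.2% and 84.0% (wild type) and 97.4% and 88.2% (knockout). The wild type share of day 0, with a mean of 78.8%, became 93.8% with 1 length per gene, since the length by which Chrne counts were divided differed between libraries.

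**Figure D3:**
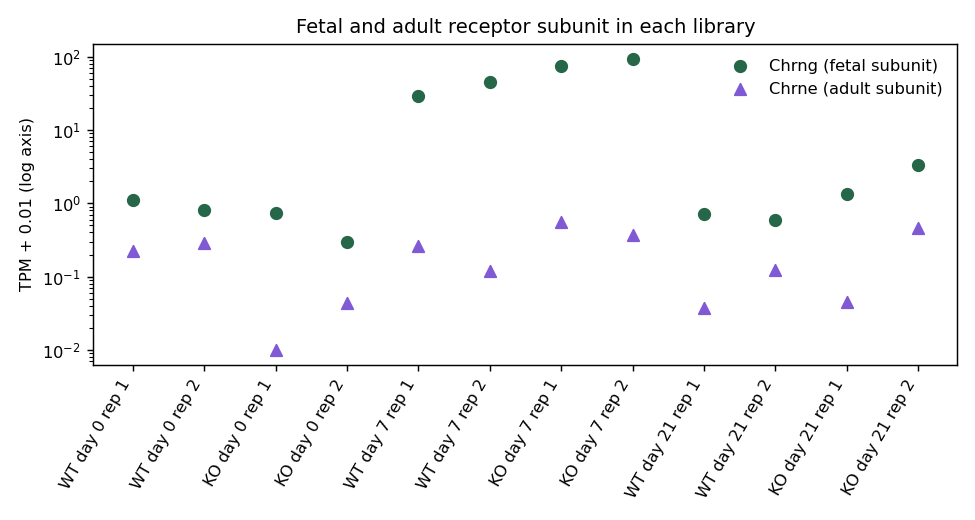
TPM + 0.01 on a log axis of Chrng, the fetal gamma subunit, and Chrne, the adult epsilon subunit, in each of the 12 libraries by labelled genotype, day and replicate. Chrng lies above Chrne in all 12, and by the most at day 7, where it makes up 99.1% to 99.8% of the sum.

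Before injury, what the loss of the Sestrins changed in resting cells was asked by comparing the genotypes at day 0. Of the 9 members other than Cacng1, 3 were lower in knockout, 1 was higher and 5 were not called, while 27.4% of all tested genes were called, 12.6% as lower and 14.8% as higher. Chrna1 fell by 1.52 on the log2 scale (SE 0.139, adjusted p = 0.000260 by edgeR's quasi-likelihood test with Benjamini-Hochberg adjustment), Chrnb1 fell by 0.87 (SE 0.107, adjusted p = 0.000713) and Rapsn fell by 0.73 (SE 0.141, adjusted p = 0.00469). Cacna1s rose at least 3.43-fold over the floor (edgeR adjusted p = 0.00881), a call lost without wild type replicate 2 of day 0 (adjusted p = 0.0516) and with limma on log2(TPM + 1) (adjusted p = 0.328); over 23 alternatives its adjusted p ranged from 0.00118 to 0.415. Chrng (-0.81, SE 0.542, edgeR adjusted p = 0.302), Chrnd (-0.69, SE 0.640), Musk (0.32, SE 0.123, edgeR adjusted p = 0.0751) and Ryr1 (1.15, SE 0.586) did not pass, nor did Chrne, at the floor. Musk passed in 4 of 24 alternatives, with a lowest adjusted p of 0.0315. Leaving out 1 library at a time moved Ryr1 between 0.57 and 2.06 and Chrnd between -1.51 and -0.10, without a pass. The calls of Chrna1, Chrnb1 and Rapsn held in all 24 alternatives.

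Satellite cell markers were lower in the same libraries. Of 8, 6 were called lower, none higher, and the list summed to 391 and 416 TPM in knockout against 560 and 571 in wild type. Pax7, which marks these stem cells, fell by 1.10 on the log2 scale (SE 0.277). The 5 fibro-adipogenic markers summed to 5301 and 5321 TPM in knockout and to between 7422 and 7560 in wild type, with 1 called lower. Of 7 mature fibre markers 3 were called lower, and the list summed to 27.6 and 28.7 TPM against 49.6 and 50.9. Of 18 myogenic differentiation genes 3 were called lower and 1 higher, with a median log2 fold change of -0.57, while their sum was the higher one in knockout, at 982 and 1071 TPM against 855 and 908. The 8 Schwann and neural markers summed to 2080 and 2124 TPM in knockout against 1714 and 1789 in wild type, with 1 called higher, and the 5 endothelial markers to 77.3 and 73.2 against 72.8 and 59.2, also with 1 called higher. Of the immune markers none was called. The part of these markers in the differences of the receptor genes and of the postsynaptic genes was not tested.

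Of 22 other tested genes of the postsynaptic apparatus, 9 were called higher in knockout at day 0 and none lower, against 14.8% and 12.6% of all tested genes, with a median log2 fold change of 0.38 against 0.0022 over all genes. Utrn (utrophin, which links the junction's cytoskeleton to the membrane) rose by 2.34 on the log2 scale (SE 0.271), Agrn (agrin) by 1.32 (SE 0.228) and Plec (plectin) by 0.76 (SE 0.0890). Of 26 further genes of excitation-contraction coupling and calcium handling 6 were higher and 4 lower, against the same shares of all genes, with a median of 0.095. Atp2a2, the calcium pump of slow and cardiac muscle, rose by 0.82 (SE 0.123) and Casq2, a calcium buffer of the reticulum, by 0.54 (SE 0.130). Lower in knockout were Sln (sarcolipin, which restrains the pump, -2.57, SE 0.515), Jsrp1 (a protein of the junctional reticulum, -1.60, SE 0.260) and Orai1 (a calcium entry channel, -0.42, SE 0.126).

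At day 7 none of the 8 members other than Cacng1 and Chrne was called between genotypes, while 1.76% of tested genes were, by edgeR's quasi-likelihood test. No test of Chrne is given here, since the knockout libraries of this day admitted it. At an unadjusted p under 0.05 there were 4 (Chrna1, Chrnd, Chrng and Cacna1s), all higher in knockout, against 14.3% of tested genes. DESeq2 called 2 members among 787 genes. In log2 units Chrna1 was 0.58 higher (SE 0.134, edgeR adjusted p = 0.0602), Chrng 1.33 (SE 0.345, edgeR adjusted p = 0.09996) and Chrnd 1.18 (SE 0.402, edgeR adjusted p = 0.212). The adjusted p of Chrna1 ranged from 0.00175 to 0.351 over 24 alternatives and passed in 10, that of Chrng passed in 5 of 23 and that of Chrnd in 2 of 23. Chrna1 passed without either library labelled wild type or either labelled knockout of day 21 (adjusted p from 0.0236 to 0.0262), and Chrng without either labelled wild type (adjusted p = 0.0133 and 0.0136). Cacna1s (0.93, SE 0.369), Chrnb1 (-0.11, SE 0.106), Musk (-0.15, SE 0.121), Rapsn (0.00078, SE 0.135) and Ryr1 (0.14, SE 0.463) did not pass. The libraries of Cacna1s overlapped, and its log2 difference lay between 0.29 and 1.37 when 1 library was left out. With the day 0 and day 7 libraries alone, edgeR called Chrna1 (adjusted p = 0.00178), Chrng (0.00152) and Chrnd (0.0195) among 1169 genes. Without the 2 libraries that Sesn2 contradicts, the log2 differences of these genes were 0.58, 1.32 and 1.17.

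Chrna1, Chrng and Cacng1 were lower in knockout at day 0 and higher at day 7, with no overlap of libraries on either day, and so was Chrne, whose counts of day 0 were at the floor. The same order was found in 8.68% of tested genes. The day 7 values chose Cacng1 and, through the filter, admitted Chrne, so nothing is read from the members' number.

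**Figure D4:**
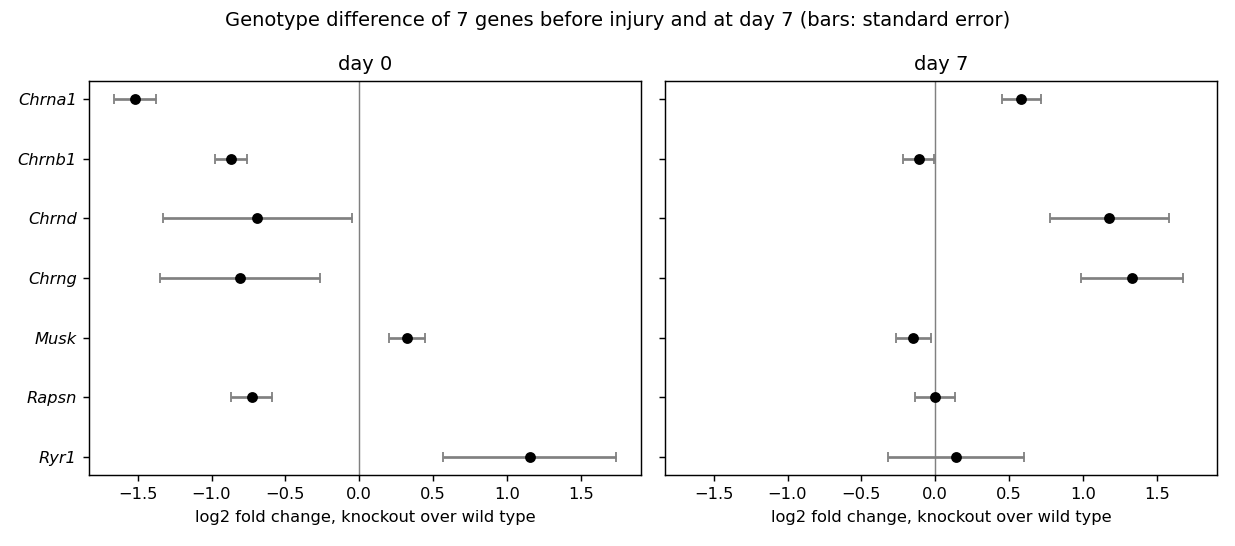
Log2 fold change of knockout over wild type with its standard error at day 0 (left) and day 7 (right) for 7 genes, without Chrne and Cacna1s, which have too few counts at day 0, and Cacng1, for which no test is given. Chrna1, Chrnd and Chrng lie below 0 at day 0 and above 0 at day 7. Only Chrna1, Chrnb1 and Rapsn at day 0 passed the edgeR test on all 12 libraries.

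Of the other genes at day 7, 1 of 22 postsynaptic genes was called, while 1.76% of all tested genes were. This gene, Dtna (a dystrobrevin of the dystrophin complex), rose in knockout by 0.72 on the log2 scale (SE 0.117). It was at 27.4 and 25.95 CPM against 15.0 and 17.4. Of 26 excitation-contraction genes 1 was called, Casq2, by 0.66 (SE 0.131), and none of 18 myogenic differentiation genes. Of these 18, 13 had values above 0, with a median log2 fold change of 0.52. Their sums overlapped, at 7927 and 6129 TPM in knockout against 5220 and 6242 in wild type. Satellite cell markers summed to 561 and 525 TPM in knockout against 628 and 602 in wild type, fibro-adipogenic markers to 8877 and 9013 against 7467 and 7884, and Schwann and neural markers to 360 and 277 against 265 and 245. Of these lists 1 Schwann and neural marker was called, as higher, and the part of the markers in the genotype differences of day 7 was not tested.

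For the listed genes that were not members the change from day 0 to day 7 was tested, though the lists too were drawn up with earlier results of these data known. Of 22 postsynaptic genes 5 rose and 7 fell in wild type, and 5 rose and 12 fell in knockout, while 25.8% and 24.7% of all tested genes rose and 21.2% and 22.2% fell. Dok7, the adaptor that activates MuSK, rose by 2.88 (SE 0.396) on the log2 scale in wild type and 3.11 (SE 0.408) in knockout. Colq, which anchors acetylcholinesterase, rose by 2.65 (SE 0.326) and 3.66 (SE 0.340). Erbb3, a neuregulin receptor, fell, with log2 changes of -1.60 (SE 0.208) and -2.42 (SE 0.213). Of 26 excitation-contraction genes 17 rose and 3 fell in wild type, and 14 rose and 4 fell in knockout. Stac3, which Cacna1s needs to reach and work at the membrane, rose by 4.27 (SE 0.306) and 5.50 (SE 0.340), Atp2a1, the calcium pump of fast fibres, by 4.19 (SE 0.253) and 5.19 (SE 0.266), and Cav3 (caveolin of muscle) by 2.89 (SE 0.251) and 3.94 (SE 0.263). Stim1, the sensor of calcium stores, fell by 1.19 (SE 0.153) in both. Whether the genotypes differed in these changes was not tested here.

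In the libraries of day 21 labelled wild type 5 of the 9 members were higher than at day 0 and none lower, while 20.4% of tested genes were higher and 15.5% lower. In those labelled knockout 7 of 9 were higher and none lower, against 16.9% and 14.1%. Musk rose by 1.76 on the log2 scale in wild type (SE 0.124, edgeR adjusted p = 2.24e-05) and 1.28 in knockout (SE 0.123, edgeR adjusted p = 8.90e-05). Rapsn rose by 0.69 (SE 0.138, edgeR adjusted p = 0.00366) and 0.86 (SE 0.141, edgeR adjusted p = 0.00158), and Chrna1 by 0.45 (SE 0.135, edgeR adjusted p = 0.0246) and 1.31 (SE 0.139, edgeR adjusted p = 0.000150). Ryr1 rose by 2.56 (SE 0.562, edgeR adjusted p = 0.00719) and 2.20 (SE 0.524, edgeR adjusted p = 0.0118). Leaving out 1 library at a time moved its rise between 1.79 and 3.47 in wild type and between 1.69 and 2.57 in knockout. Cacna1s rose at least 26.8-fold over the floor in wild type and by 4.38 (SE 0.488) in knockout, where the rise was 2.38 with an offset for length (edgeR adjusted p = 0.0116). Of 8 satellite cell markers 6 were also higher than at day 0 in each labelled genotype, with sums of 701 to 1010 TPM against 391 to 571, while the Schwann and neural markers summed to 642 to 982 against 1714 to 2124. Of 18 myogenic differentiation genes 10 were higher and 1 lower in wild type, with a median log2 fold change of 0.80, and 12 were higher and none lower in knockout, with a median of 2.17. Of 7 mature fibre markers 2 were higher in wild type, with a median of 0.27, and 4 in knockout, with a median of 1.53. Of 5 fibro-adipogenic markers 3 were higher in each labelled genotype, with 1 lower in wild type. The 6 immune markers summed to 6.52 to 9.97 TPM against 3.78 to 4.94. Of the 5 tested, 1 was called higher in wild type and 2 in knockout. The part of these markers in the rises was not tested. These comparisons share their day 0 libraries with the change that chose the members.

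In the libraries labelled knockout, Chrnb1 also passed with a rise of 0.82 (SE 0.107, edgeR adjusted p = 0.000468) and Chrng with 1.58 (SE 0.517, edgeR adjusted p = 0.0437); the difference from wild type was not tested. In wild type Chrnb1 was 0.19 higher (SE 0.106, edgeR adjusted p = 0.198) and passed in 4 of 23 alternatives, with limma on log2 TPM (adjusted p from 0.0096 to 0.0127) and on the batch-corrected values (adjusted p = 0.0260). The call of Chrng ended in 12 of 22 alternatives and, among single libraries, without any of 9 (adjusted p from 0.0596 to 0.273). Leaving out a library also ended the call of Chrna1 in wild type (without replicate 1 or 2 of wild type at day 0 or replicate 2 labelled wild type at day 21, adjusted p from 0.0769 to 0.132). For Ryr1 the call ended in wild type without replicate 2 of wild type at day 0 (adjusted p = 0.0519), and in knockout without replicate 2 of knockout at day 0 (0.0881) or replicate 1 labelled knockout at day 21 (0.0639). With limma on log2(TPM + 1) it ended too, in wild type (adjusted p = 0.172) and knockout (0.0627), as did that of Cacna1s in wild type (0.115). Chrnd was 1.56 higher in knockout without passing (SE 0.604, edgeR adjusted p = 0.0783). It passed in 3 of 22 alternatives, with DESeq2 (adjusted p = 0.0132), on the batch-corrected values (0.00966) and without replicate 1 labelled knockout at day 21 (0.0269), and lay between 0.66 and 2.38 when 1 library was left out.

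Without the 2 libraries that Sesn2 contradicts, 6 of the 9 members were called in each genotype, against 32.9% of 16460 tested genes in wild type and 31.2% in knockout, with 1 library left per group at day 21 that is assumed to vary like the other groups. Chrng then passed as lower than day 0 in wild type (-2.43, edgeR adjusted p = 0.00436) and did not pass in knockout (1.03, edgeR adjusted p = 0.0585). The wild type value rests on 1 library with 7 counts of Chrng and the lowest length ratio of all 12, 0.215; in TPM it was at 0.586 against a mean of 0.940 at day 0. With 1 library left out at a time the log2 change ranged from -2.43 to -0.23. Musk stayed called in both, at 1.61 and 1.24.

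Between the labelled genotypes at day 21 none of the 9 members was called by edgeR's quasi-likelihood test, while 0.0126% of tested genes were. At an unadjusted p under 0.05, which 14.2% of tested genes reached, there were 4, namely Chrna1 (-0.67, SE 0.135), Rapsn (-0.56, SE 0.138), Chrng (1.72, SE 0.513) and Cacna1s (1.44, SE 0.391). Leaving out 1 library at a time moved Chrng between 1.00 and 3.21 and Cacna1s between 1.25 and 1.67. Chrna1 then lay between -0.88 and -0.49 and Rapsn between -0.76 and -0.40. DESeq2 called the same 4 members among 471 genes, Chrna1 and Rapsn as lower and Chrng and Cacna1s as higher in the libraries labelled knockout. Without the 2 contradicted libraries 1 library is set against 1, with no replicate in either group and a spread taken from the other groups, and 7.29% of 16460 tested genes were called. Chrna1 (-0.63, edgeR adjusted p = 0.00678) and Chrng (2.66, edgeR adjusted p = 0.0169) were among them, a comparison of these libraries rather than of the genotypes. The value of Chrng rests on the wild type library with 7 counts and the length ratio of 0.215, and in TPM the libraries stood at 1.34 in knockout against 0.586 in wild type. Cacng1 did not pass and its libraries overlapped between the labels (0.19, SE 0.174, edgeR adjusted p = 0.667).

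Between day 7 and day 21 all 4 libraries of day 7 were the higher ones for 7 of the 10 genes and the lower ones for Musk, while 24.7% and 21.6% of tested genes separated these ways. The day 7 values are among those that chose the members, and nothing is read from their share. Of 22 postsynaptic genes 9 were higher at day 21 than at day 0 and 1 lower in the libraries labelled wild type, where 20.4% of all tested genes were higher and 15.5% lower. In those labelled knockout 5 were higher and 4 lower, against 16.9% and 14.1%. Crkl, an adaptor bound by Dok7, rose by 0.95 (SE 0.114) and 0.69 (SE 0.113). Atp2a1 rose by 1.73 (SE 0.230) and 3.09 (SE 0.243), and Pvalb (parvalbumin, the calcium buffer of fast fibres) by 3.12 (SE 0.450) and 3.80 (SE 0.454). Of 26 excitation-contraction genes 10 were higher and 2 lower in wild type, and 10 higher and 4 lower in knockout.

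The tested genes whose log2 CPM followed Cacng1 most closely over the 12 libraries were Cd276 (Pearson r = 0.996), Ifngr2 (0.994), Mylpf (0.994), Myl1 (0.993) and Actn2 (0.992). Mylpf and Myl1 encode myosin light chains and Actn2 the actin cross-linker of the Z disc. For Chrng they were Mybph (0.980), Wipi1 (0.978), Myl4 (0.977), Gsr (0.973) and B4galnt1 (0.971). The points are 6 groups of 2 libraries, so these are descriptions of a pattern over groups. By Spearman's rho 1 of the 5 genes of Cacng1 and none of the 5 of Chrng was again among the first 5.

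Some values rest on how reads were shared among transcripts. The ratio of estimated count to TPM, relative to the median gene of the library, ranged from 0.388 to 2.74 for Cacna1s, 0.215 to 1.19 for Chrng and 0.104 to 0.622 for Chrne, but only from 1.91 to 1.96 for Chrna1 and 0.444 to 0.456 for Cacng1. For Cacna1s it was 0.551 and 0.388 in the knockout libraries of day 0 and 1.39 to 2.74 in the libraries of days 7 and 21.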

How the data were processed

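RNA of sorted muscle stem cells was made into cDNA with SMART-Seq v4 and Nextera XT and read as 76-base single ends, per the labels' protocols. Kallisto 0.46.1, mm10 and GRCm38.p6 are named in the submitters' processing notes; the annotation is not given in the sources used here. The authors deposited estimated counts, not normalised, of 30154 genes. The authors also deposited TPM of the same genes, and log2 values of 21782 genes corrected for a batch that is not named.

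Estimated counts were rounded and filtered with filterByExpr, which kept 15890 genes. Libraries were scaled by TMM, and a mean for each of 6 groups was estimated from the 12 libraries by quasi-likelihood (edgeR 4.0.16, robust setting, R 4.3.3). P-values were adjusted by Benjamini-Hochberg over all tested genes and called under 0.05. With 2 libraries against 2, a permutation test cannot go below 0.333.

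The members and lists were chosen with earlier results of these data known. Named were all members, Sesn1 and Sesn2, and per list and comparison at most 3 called genes each way with the smallest adjusted p, of which the text gives part. Pax7, Chat, Cd3e and Emr1 were named from the marker lists after their values were seen. No test of Cacng1 is given where day 0 or day 7 libraries enter, since its rise chose the set, and none of Chrne between genotypes at day 7, where it passed the filter only through the knockout libraries. A few list genes that share a symbol or carry an older one were matched by identifier. Alternatives were DESeq2 1.42.0, other filters and scalings, a length offset, a replicate block, limma 3.58.1 on log2 TPM (pseudocount 1 or 0.1) and on the batch-corrected values, a fit without day 21, and leaving out each library; 1 more, without the 2 libraries that Sesn2 contradicts, was chosen after seeing the data.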

Additional observations from a re-analysis of the deposited data

Results flagged for a closer look

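For 3 of the 10 genes the genotype difference pointed opposite ways on 2 days with no overlap of libraries on either day, leaving aside Chrne, which was at the floor at day 0. With Chrne there were 4 of 10, against 24.3% of tested genes with such a turn between any 2 of the 3 days. For days 0 and 7 there were 4, against 17% of tested genes, for day 0 and day 21 by label 2, against 7.84%, and for day 7 and day 21 by label 1, against 6.98%. The day 7 values chose Cacng1 and admitted Chrne through the filter on low counts, so nothing is read from these numbers of members. The difference between the days was not tested for any value in this part, and each value is the later log2 fold change of knockout over wild type minus the earlier one. From day 0 to day 7 the difference moved by 2.1 for Chrna1 (from -1.52 to 0.58), by 2.14 for Chrng (from -0.81 to 1.33) and by 2.44 for Cacng1 (from -1.6 to 0.84). From day 7 to day 21 by label it moved by -1.25 for Chrna1, and from day 0 to day 21 by label by 2.53 for Chrng.

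Sln, Mylpf, Acta1 and Mef2a showed the same kind of turn. They come from the listed genes called between genotypes with the smallest adjusted p, not from whole lists. Such turns were found in 17% of tested genes for days 0 and 7, so nothing is read from their number. Between days 0 and 7 the difference moved by 3.26 for Sln, 2.21 for Mylpf, 1.29 for Acta1 and -0.91 for Mef2a. Between day 0 and day 21 by label it moved by 2.57 for Mylpf and 1.62 for Acta1, and between day 7 and day 21 by label by -1.68 for Sln and 0.73 for Mef2a.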

How the results depend on the processing

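With 2 libraries per group the counts of calls move with single libraries. Leaving out 1 library at a time gave 1667 to 5166 genes and 3 to 5 of the 9 members for the genotypes at day 0. At day 7 it gave 15 to 619 genes and 0 to 2 members, Chrne not among them, and at day 21 by label 0 to 865 and 0 to 3. For day 21 against day 0 it gave 3185 to 5928 genes and 3 to 6 members in wild type, and 2665 to 5615 and 5 to 7 in knockout. The main counts were 4356, 280, 2, 5704 and 4930 genes in this order.

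For the genotypes at day 7 DESeq2 called 787 genes and 2 members, no filter 372 and 1, and the length offset 166 and 0. At least 10 counts in every library gave 347 genes and 1 member, with Chrnd, Chrng, Chrne and Cacna1s not tested. The day 0 and day 7 libraries alone gave 1169 genes and 3 members, the batch-corrected values 825 and 1, and limma on log2 TPM 138 (pseudocount 1), 110 (pseudocount 0.1) and 101 (no filter) genes. Without the 2 libraries that Sesn2 contradicts there were 1136 genes and 3 members. At day 21 by label DESeq2 called 471 genes and 4 members, no filter 57 and 1, at least 10 counts 23 genes, the batch-corrected values 176, limma without a filter 14, the length offset 0 and limma with pseudocount 0.1 again 0; without the contradicted libraries there were 1200 genes and 2 members.

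Same-numbered libraries did not deviate together: over 15 pairs of groups the correlation of deviations was -0.143 to 0.0700, none over 0.1, so the numbers were not taken as pairs. With the replicate block the genotypes at day 21 by label differed in 1 gene and day 21 against day 0 in knockout kept 6 members called, Chrng being lost (adjusted p = 0.0655); the block ended or made no other call of a member.

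Rapsn at day 7, at 0.00078, changed sign with no filter (-0.0047), the length offset (-0.019), limma on log2 TPM (-0.053 with pseudocount 1, with and without the filter, and -0.054 with pseudocount 0.1), the batch-corrected values (-0.0013) and without the contradicted libraries (-0.0035), and lay between -0.044 and 0.045 when 1 library was left out. Ryr1 at day 7 lay between -0.083 and 0.40. Chrnd by label lay between -0.59 and 1.03 between genotypes at day 21, and was -1.05 without the contradicted libraries; for day 21 against day 0 in wild type it lay between -0.15 and 1.03. None of these passed the edgeR test as reported, and the cause was not tested. The wild type share of Chrng at day 0 was 93.8% with 1 length per gene and 94.0% from counts alone. Depth limits Chrne, whose counts were at most 21 in every library, and Cacna1s, Chrnd and Chrng at day 0.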

Other observations

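Nicotinic subunits of the nervous system were nearly absent. Of 11 such genes 2 passed the filter, Chrna4 and Chrna7, and the list summed to 1.56 to 1.84 TPM at day 0, 3.55 to 5.73 at day 7 and 3.16 to 4.66 at day 21. Chrna3 and Chrna6 were at 0 in all 12 libraries. Chrna4 was at 0.0625 and 0.214 CPM in wild type at day 0 and 4.75 and 6.07 at day 7, a rise by edgeR's quasi-likelihood test (adjusted p = 0.00428). In knockout it was at 1.04 and 0.824 and then 3.19 and 1.59 (edgeR adjusted p = 0.263). Chrna7 rose at day 21 by 1.16 on the log2 scale (wild type by label) and 1.12 (knockout by label), and at day 7 by 1.18 in knockout, where wild type had 0.02 (edgeR adjusted p = 0.961); the difference was not tested.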
